A study of Mus musculus with 12 samples.

Results

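The sirtuins are the 7 genes Sirt1 to Sirt7, of 19087 named genes on the array, and were measured with 11 of its 41174 probes. They were taken as the probes whose gene symbol in the platform annotation is one of these names, whatever their values. The family itself was chosen with earlier results of these data known. All 7 genes and all 11 probes passed the filter on empty cells. Sirt2 had 3 probes, Sirt1 and Sirt7 had 2 each, and Sirt3, Sirt4, Sirt5 and Sirt6 had 1 each.

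Sirtuins remove acetyl and other acyl groups from lysines of proteins and split a molecule of NAD+ with each reaction, so that their activity depends on the NAD+ supply of the compartment they work in. Sirt3, Sirt4 and Sirt5 work in mitochondria, Sirt1, Sirt6 and Sirt7 mainly in the nucleus, and Sirt2 mainly in the cytosol. The heart is rich in mitochondria and burns mostly fatty acids, and many enzymes of that oxidation carry acyl groups that mitochondrial sirtuins remove. In skeletal muscle AMP-activated protein kinase (AMPK), a sensor of cellular energy, is known to raise NAD+ and with it the activity of Sirt1. A microarray measures transcripts and says nothing of sirtuin activity or of NAD+.

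The series compared cardiac ventricle of 6 wild-type mice (WT, AMPK alpha2 +/+) with that of 6 mice lacking the alpha2 catalytic subunit of the kinase (KO, AMPK alpha2 -/-). All animals were of strain C57B6, 7 months old and fed standard chow, and the labels name no other treatment than the anaesthetic pentobarbital. Each animal had its own 2-colour array, on which its heart RNA competed with a universal reference made from 11 mouse cell lines. Heart RNA carried the dye Cy3 in replicates 1 to 3 and Cy5 in replicates 4 to 6 of each genotype. A value is the log ratio of heart over reference for the same probe. It was read as log2, and since the base is not stated, every fold below rests on that reading. At a ratio of 0 the heart and the cell lines gave the same signal, so the ratio says how a gene stands relative to dividing cultured cells and not how abundant its transcript is in heart.

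The samples had the profile of heart muscle, and several carried other tissues. All 14 cardiomyocyte markers lay above the reference on every array that measured them (median log2 ratio 5.56), and 14 measured markers of dividing cells had fitted levels below it (median -3.05). WT replicate 2 and KO replicate 1 carried atrial transcripts (Myl4, the atrial light chain, at 5.64 and 5.56, against at most 3.67 elsewhere), and KO replicate 6 carried transcripts of lung and liver. Empty cells made up 0.31% to 41.8% of the probes of an array, most of all in WT replicate 3 and KO replicate 4. Prkaa2, which encodes the deleted subunit, had a mean log2 ratio of 4.10 in the 6 WT animals (SD 0.09) and of 3.89 in the 5 KO animals with a value (SD 0.26). The labels do not say which part of the gene is deleted or where its probe lies, so this signal checks nothing about the labels. Prkaa1, which encodes the other catalytic subunit, differed by -0.06 ± 0.10 (SE, KO minus WT).

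The mitochondrial genes Sirt5 and Sirt3 stood far above the reference RNA in ventricle, and the mitochondrial Sirt4 lay near it with the nuclear and cytosolic sirtuins. Sirt5 was 9.88-fold and Sirt3 4.39-fold above the reference cell lines, while Sirt2, Sirt4 and Sirt1 were 1.78-fold, 1.44-fold and 1.31-fold above it. Sirt6 could not be told from the reference, and Sirt7 was below it at 0.703 of the reference signal. In limma, with the level averaged over both genotypes and dye orientations and tested against 0, 5 of the 7 genes were called above the reference and 1 below at an adjusted p under 0.05. Over all 25821 features, 24.8% were called above and 26.6% below. The reference is a single RNA pool, so these tests leave out its own spread.

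**Figure D1:**
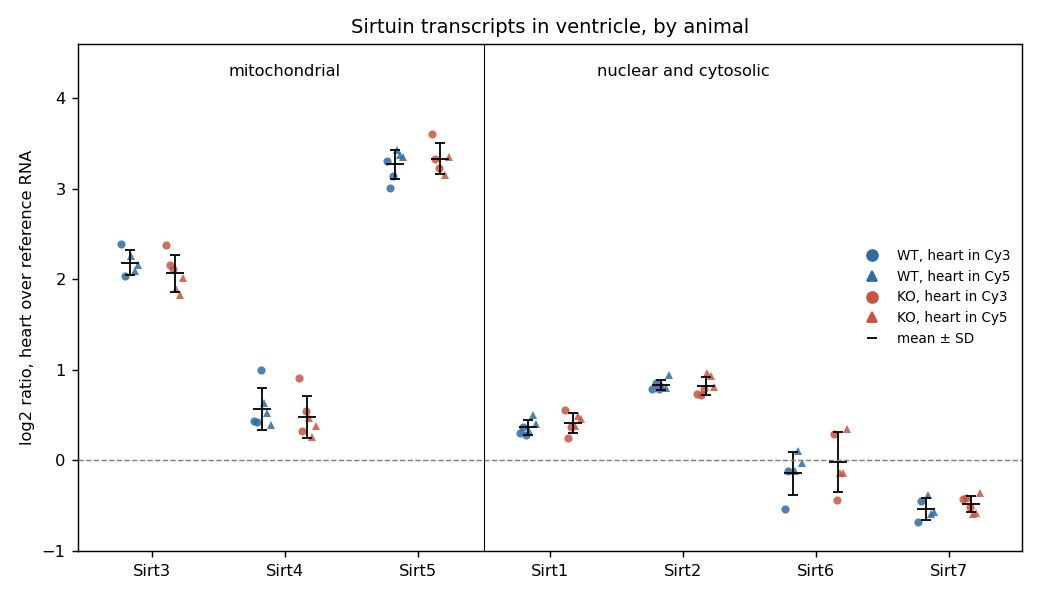
Log2 ratio of heart over reference RNA (vertical axis) for each sirtuin gene and animal, with WT in blue, KO in red, circles for heart RNA in Cy3 and triangles for Cy5. Bars give the mean ± SD of each genotype. Sirt5 (3.01 to 3.60) and Sirt3 (1.82 to 2.39) lie above every value of the other 5 genes, and the genotypes overlap for all 7 genes.

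Sirt5, a mitochondrial enzyme that removes succinyl, malonyl and glutaryl groups, had the highest ratio of the family. Its gene spans bases 43365389 to 43395203 of chromosome 13 (RefSeq, GRCm38.p6). The WT arrays ranged from 3.01 to 3.43 with a median of 3.33, and the KO arrays read 3.60, 3.33, 3.23, 3.15 and 3.35 in replicates 1, 2, 3, 5 and 6, with replicate 4 empty. The highest and the lowest arrays were thus KO replicate 1 and WT replicate 2, and the other arrays of both genotypes lay between them. The fitted level was 3.31 ± 0.06 (SE, limma adjusted p = 1.97e-14), above the level of 98.5% of the 17837 named genes tested. The RefSeq promoter window of Sirt5, from 250 bases before to 50 after an annotated start, lies at chr13:43365285-43365584 of GRCm38.p6 on the plus strand. It is shown because this gene stood highest over the reference and because it was the 1 sirtuin gene with a window that held AAGGTCA, the core of the element bound by estrogen-related receptors, which are regulators of mitochondrial genes in heart. Capitals mark that match.
Sirt5: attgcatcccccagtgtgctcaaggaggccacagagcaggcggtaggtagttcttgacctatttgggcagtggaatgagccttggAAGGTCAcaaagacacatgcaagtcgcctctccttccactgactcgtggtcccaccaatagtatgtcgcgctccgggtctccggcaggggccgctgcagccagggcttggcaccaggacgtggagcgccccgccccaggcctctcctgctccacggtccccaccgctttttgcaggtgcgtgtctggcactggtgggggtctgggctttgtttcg
The letters were searched on both strands in the 9 windows of the 7 sirtuin genes, and 4.72% of all 32851 RefSeq windows hold them. CACGTG, the E-box, occurred in the window of Sirt1 (7.15% of all windows), and CCGGAAG, a motif of ETS factors, in a window each of Sirt3, Sirt6 and Sirt7 (8.86% of all windows). No motif searched overlapped another in these windows. A match of letters describes the window and is no evidence of binding.

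Sirt3, the main deacetylase of mitochondria, came next. Its gene spans bases 140863663 to 140882309 of chromosome 7. The WT arrays read 2.39, 2.04, 2.26, 2.09 and 2.16 in replicates 1, 2, 4, 5 and 6, and the KO arrays ranged from 1.82 to 2.38 with a median of 2.07. KO replicates 4 and 5 were the lowest arrays of all, and KO replicate 1 was nearly as high as WT replicate 1, the highest. The fitted level was 2.14 ± 0.05 (SE, limma adjusted p = 6.07e-13), above that of 96.2% of named genes. Sirt5 exceeded Sirt3 on all 10 arrays that measured both, by 1.17 ± 0.14 (SD).

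Sirt3 lies head to head with Psmd13, a subunit gene of the proteasome, and the nearest annotated start of Sirt3 is 85 bases from that of Psmd13. Another annotated start of Sirt3 lies at base 140881869, and its window does not hold the start of Psmd13. The window of the nearer start, at chr7:140882260-140882559 on the minus strand of GRCm38.p6, is shown because it holds the starts of both genes. Capitals run from the start of Psmd13 to this start of Sirt3.
Sirt3: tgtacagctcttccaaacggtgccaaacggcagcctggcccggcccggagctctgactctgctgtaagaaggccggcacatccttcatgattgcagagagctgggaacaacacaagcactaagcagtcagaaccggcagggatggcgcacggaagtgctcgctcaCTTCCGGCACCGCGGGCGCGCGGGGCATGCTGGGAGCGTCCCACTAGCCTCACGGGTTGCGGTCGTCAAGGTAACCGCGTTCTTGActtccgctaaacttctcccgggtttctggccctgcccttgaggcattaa
Psmd13 did not share the high ratio of its neighbour. It read -0.15, -0.10, 0.12, -0.10, 0.24 and 0.31 in WT replicates 1 to 6 and 0.19, 0.10, 0.01, 0.09 and -0.40 in KO replicates 1, 2, 3, 5 and 6. These values lay on both sides of the reference in both genotypes, and the fitted level was 0.03 ± 0.07 (SE, limma adjusted p = 0.781). Its difference between genotypes was -0.06 ± 0.13 (SE, limma adjusted p = 0.984), and 0.08 without KO replicate 6.

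Sirt4, the mitochondrial sirtuin known for ADP-ribosyl and lipoamidase activity, was much closer to the reference than Sirt3 and Sirt5. The gene spans bases 115478006 to 115490264 of chromosome 5. WT arrays ranged from 0.39 to 1.00 with a median of 0.48, and KO arrays from 0.26 to 0.91 with a median of 0.43. All 12 arrays lay above 0, and the highest were WT replicate 3 and KO replicate 1, on which 39.2% and 26.2% of all probes were empty. The part of array quality in these 2 values was not tested. The fitted level was 0.52 ± 0.06 (SE, limma adjusted p = 4.8e-06).

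Of the nuclear and cytosolic genes, Sirt2 was the highest over the reference. Sirt2, known as a tubulin deacetylase, spans bases 28766752 to 28788665 of chromosome 7. Its WT arrays ranged from 0.79 to 0.94 with a median of 0.81, and its KO arrays from 0.73 to 0.97 with a median of 0.80, in overlapping ranges. This narrow band is of the value joined over its probes, and values of single probes ran from 0.34 to 1.15. The fitted level was 0.83 ± 0.04 (SE, limma adjusted p = 6.69e-11).

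Sirt1, which deacetylates p53, FOXO factors and the coactivator encoded by Ppargc1a, spans bases 63319005 to 63339035 of chromosome 10. WT arrays ranged from 0.28 to 0.50 (median 0.35) and KO arrays from 0.25 to 0.56 (median 0.42). All 12 lay above 0, in overlapping ranges, with a fitted level of 0.39 ± 0.04 (SE, limma adjusted p = 7.78e-07).

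Sirt6, a chromatin-bound deacetylase, spans bases 81621787 to 81627792 of chromosome 10 and varied most around the reference. It read -0.53, -0.12, -0.12, 0.10 and -0.02 in WT replicates 1, 2, 4, 5 and 6 and 0.29, -0.44, -0.14, -0.14 and 0.35 in KO replicates 2 to 6. Of these 10 arrays 7 lay below 0 and 3 above, in both genotypes. The level of -0.10 ± 0.08 (SE) did not pass (limma adjusted p = 0.37).

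Sirt7, an enzyme of the nucleolus linked to transcription of ribosomal RNA, spans bases 120618371 to 120625014 of chromosome 11. It was below the reference on all 11 arrays that measured it. The 5 WT arrays read -0.68, -0.45, -0.39, -0.59 and -0.58 in replicates 1, 2, 4, 5 and 6, and the KO arrays ranged from -0.59 to -0.36 with a median of -0.47. The ranges overlapped, and the fitted level was -0.51 ± 0.05 (SE, limma adjusted p = 3.82e-07), lower than that of most named genes, since 16.6% stood below it.

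Ordered by their ratio over the reference, the genes ran Sirt5, Sirt3, Sirt2, Sirt4, Sirt1, Sirt6, Sirt7. This is an order of ratios and not of abundance. Sirt3 exceeded Sirt2 on all 11 shared arrays, by 1.29 ± 0.24 (SD). Further down the order was less firm. Sirt2 exceeded Sirt4 by 0.31 ± 0.27 (SD) and on 10 of 12 arrays, and Sirt4 exceeded Sirt1 by 0.13 ± 0.25 (SD) and on 9 of 12, which is less than the spread between arrays. Sirt1 stood above Sirt6 on 9 of 10 arrays (0.46 ± 0.28, SD) and Sirt6 above Sirt7 on 10 of 10 (0.44 ± 0.23, SD).

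On the 9 arrays that measured all 7 genes, the mean ratio of the mitochondrial sirtuins was 1.74 to 2.11 and that of the nuclear and cytosolic ones was -0.03 to 0.31. The difference between these means was 2.07, 1.66, 1.95, 1.79 and 1.78 in WT replicates 1, 2, 4, 5 and 6, and 1.73, 1.91, 1.57 and 1.61 in KO replicates 2, 3, 5 and 6. Its mean was 1.85 ± 0.16 (SD) over the 5 WT animals and 1.70 ± 0.15 (SD) over the 4 KO animals, in overlapping ranges. The mitochondrial mean rests on Sirt3 and Sirt5, since the level of Sirt4 (0.52) was lower than that of Sirt2 (0.83).

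No sirtuin gene passed the test between the genotypes. In limma, with genotype and dye orientation as terms, 0 of 7 passed at an adjusted p under 0.05 and 0 of 7 had an unadjusted p under 0.05. Of all features 0.00387% were called at the adjusted and 5.33% had a p under 0.05 at the unadjusted level. Sirt3, Sirt4 and Sirt2 were lower in KO and Sirt1, Sirt5, Sirt6 and Sirt7 higher, with adjusted p-values from 0.942 to 0.995. WT and KO arrays overlapped for all 7 genes, and of all features 0.465% had arrays that did not overlap.

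**Figure D2:**
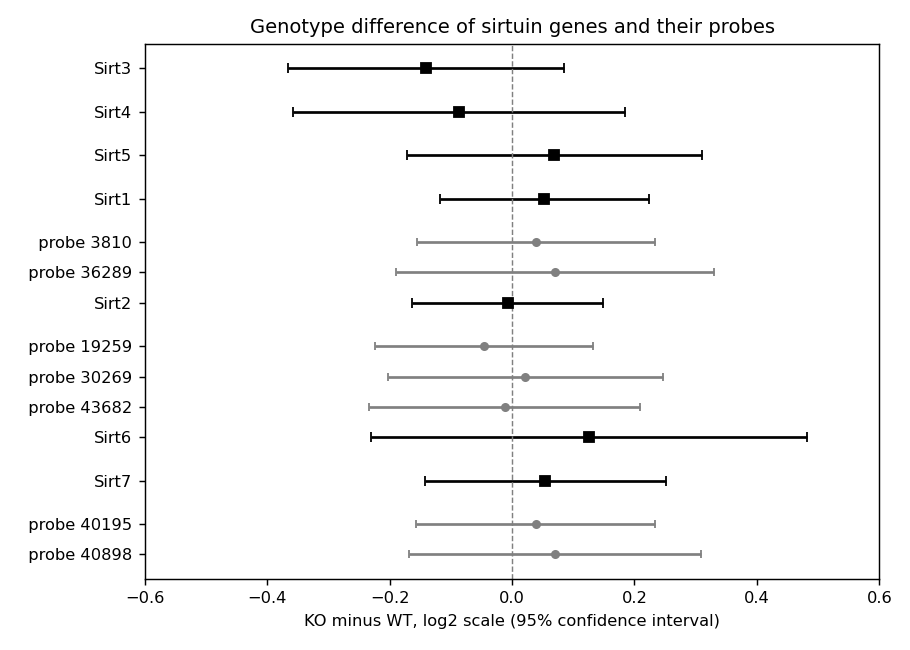
KO minus WT on the log2 scale (horizontal axis) for each sirtuin gene (black squares) and for the single probes of genes with several (grey circles), with the 95% confidence interval from limma. Every interval includes 0, and those of the genes reach from -0.37 at the lowest (Sirt3) to 0.48 at the highest (Sirt6).

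The intervals show how large a difference the arrays could have missed. Sirt3 had the most negative difference, -0.14 ± 0.10 (SE), with a 95% confidence interval from -0.37 to 0.09, so that KO could lie anywhere from 0.777 to 1.06 times WT. Its difference was 0.01 within the Cy3 orientation and -0.26 within the Cy5 orientation. Sirt4 differed by -0.09 ± 0.13 (SE, interval -0.36 to 0.19), and by -0.01 without WT replicate 3, its highest array.

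Sirt5 differed by 0.07 ± 0.11 (SE, interval -0.17 to 0.31). That sign rested on KO replicate 1, without which the difference was -0.005, and it was 0.23 with heart RNA in Cy3 and -0.14 in Cy5. In the fit over all 12 arrays the interval of Sirt1 was 0.922 to 1.17 times WT. It was 0.893 to 1.11 for Sirt2, 0.777 to 1.06 for Sirt3 and 0.78 to 1.14 for Sirt4. For Sirt5 it was 0.888 to 1.24, for Sirt6 0.853 to 1.40 and for Sirt7 0.906 to 1.19. A 1.5-fold change in either direction lies outside each of these intervals. Intervals under other processing are not given here.

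Among the nuclear and cytosolic genes, Sirt1 differed by 0.05 ± 0.08 (SE) and Sirt2 by -0.01 ± 0.07. Sirt7 differed by 0.05 ± 0.09, and Sirt6, the most variable, by 0.13 ± 0.16 (SE), or -0.01 without KO replicate 2. These differences were no larger than the spread between animals of a genotype, which was 0.06 to 0.33 (SD) for these genes.

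Probes of the same gene gave similar differences between genotypes, while those of Sirt1 and Sirt2 went opposite ways between dye orientations. The 2 probes of Sirt1 differed between genotypes by 0.04 and 0.07, those of Sirt7 by 0.04 and 0.07, and the 3 probes of Sirt2 by -0.05, 0.02 and -0.01. Between dye orientations, feature 19259 of Sirt2 was higher with heart RNA in Cy5 (mean 1.06 against 0.75), a difference of 0.30 ± 0.08 (SE, limma adjusted p = 0.0465 over 36826 probes). Feature 30269 of the same gene went the other way, with means of 0.81 in Cy5 and 1.10 in Cy3 (-0.29 ± 0.10, SE, adjusted p = 0.119). Feature 43682 followed the first, with a difference of 0.26 ± 0.10 (adjusted p = 0.142).

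**Figure D3:**
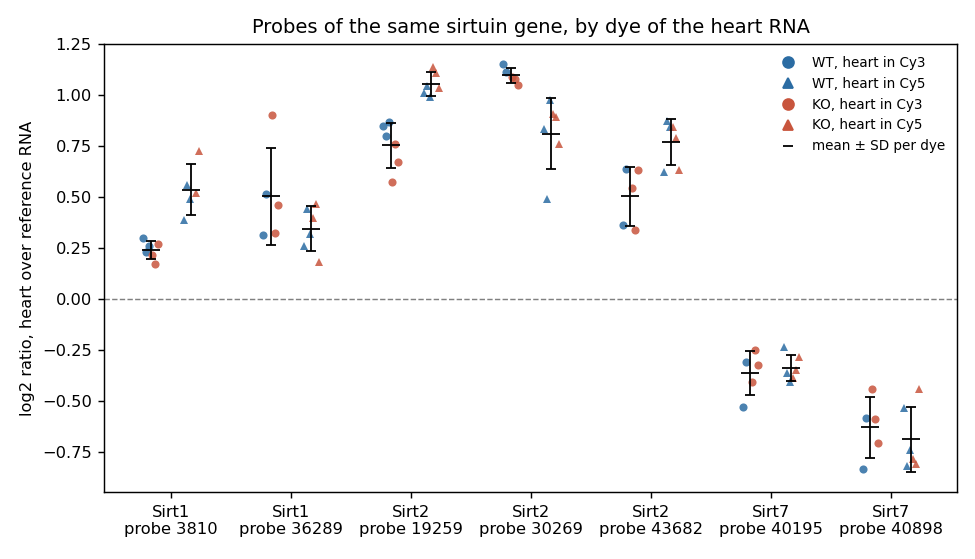
Log2 ratio of heart over reference RNA (vertical axis) for the single probes of Sirt1, Sirt2 and Sirt7, separated by the dye of the heart RNA (circles for Cy3, triangles for Cy5) and coloured by genotype. Bars give the mean ± SD per dye. Probe 19259 of Sirt2 is higher in Cy5 and probe 30269 of the same gene higher in Cy3. Within Cy3 the KO arrays lie below the WT arrays for both of these probes, with at most 3 arrays per genotype. Probe 30269 has no value in WT replicate 3. The genotypes overlap within Cy3 for probe 43682, the other probe of Sirt2, and within Cy5 for all of these probes. How often other probes separate in this way was not counted.

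Of all probes fitted by themselves 6.43% were called for dye, and 1 of the 11 sirtuin probes was. Averaged over probes, 0 of the 7 genes were called for dye, against 5.71% of all features, and Sirt2 differed by 0.10 ± 0.07 (SE). For Sirt1, feature 3810 was higher in Cy5 by 0.30 ± 0.09 (SE, adjusted p = 0.0669) and feature 36289 lower by 0.15 ± 0.12. The latter read 0.90 in KO replicate 1, against 0.18 to 0.51 on the other arrays. The probes of Sirt7 differed little between dyes, by 0.03 ± 0.09 and -0.05 ± 0.11 (SE). Dye orientation was carried by different animals, but it was balanced over genotype.

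The genes of NAD+ synthesis and of steps next to it gave levels on both sides of the reference and no call between genotypes. Of 19 measured genes of NAD+ synthesis and its neighbouring steps 8 were called above the reference and 3 below, against 24.8% and 26.6% of all features. Nmrk2, the nicotinamide riboside kinase enriched in muscle, was the highest (level 3.40 ± 0.25, SE), followed by Naprt, which starts the pathway from nicotinic acid (2.78 ± 0.06), and Nnt, the mitochondrial transhydrogenase (1.99 ± 0.04). Nmnat3, the mitochondrial adenylyltransferase, was at 1.65 ± 0.06, Nampt, the rate-limiting enzyme of salvage from nicotinamide, at 1.49 ± 0.07 and Nmnat1, the nuclear adenylyltransferase, at 1.10 ± 0.05. Nadk, the cytosolic kinase that turns NAD+ into NADP+ and does not make NAD+, was the lowest at -1.23 ± 0.05.

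Between genotypes 7 of these 19 genes were higher in KO and 12 lower, with a median difference of -0.03 against -0.001 over all features. Tdo2, counted among the higher, read 2.53 in KO replicate 6, the array with liver transcripts, and at most 0.27 on the other KO arrays. None of the 19 passed over all features (limma adjusted p of at least 0.899). An unadjusted p under 0.05 was found for 2, against 5.33% of all features. Nmrk2 was 1 of these 2 genes. It read 2.81, 3.61, 1.48, 3.24, 3.35 and 2.00 in WT replicates 1 to 6 and 5.64, 5.08, 3.69, 3.17 and 3.00 in KO replicates 1, 2, 3, 5 and 6. The 3 KO animals with heart RNA in Cy3 were higher than every WT animal, and the other 2 lay within the WT range.

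The difference of Nmrk2 was 1.30 ± 0.50 (SE, unadjusted p = 0.0226, limma adjusted p = 0.91). It was 2.16 with heart RNA in Cy3 alone and 0.22 in Cy5 alone. Skeletal muscle is another tissue with the gene. Those of its 8 markers with a value had array medians of -0.21 to 0.03 in WT and -0.20 to 0.45 in KO. In KO replicates 1 and 2 the medians of these markers were -0.15 and -0.20. Acta1 and Myh4, the highest of them, lay well above the reference in both genotypes, and Myh4 was at 2.67 and 2.85 in those 2 animals against 2.62 to 3.21 in WT. The atrial markers Myl7, Myl4 and Sln were at 7.09, 5.56 and 4.38 in KO replicate 1 and at 1.92, -0.05 and 1.27 in KO replicate 2. In WT replicate 2, where Nmrk2 was at 3.61, these markers were at 7.19, 5.64 and 3.79. The part of either tissue in the difference was not tested. Without KO replicate 1 the difference was 0.98, and without WT replicate 3, the lowest array, 0.90.

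**Figure D4:**
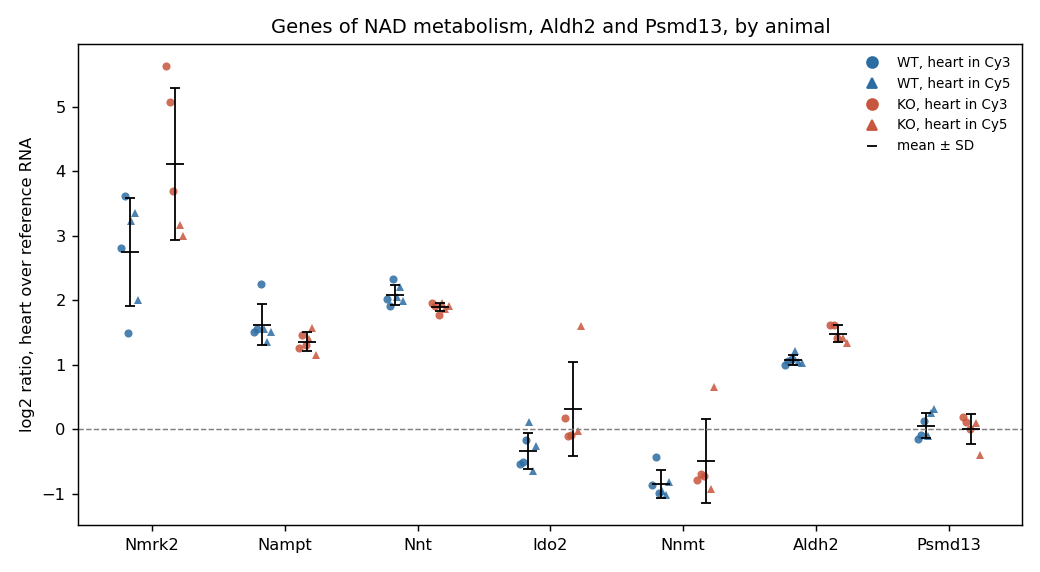
Log2 ratio of heart over reference RNA (vertical axis) by animal for 5 genes of NAD+ metabolism, for Aldh2, a mitochondrial sirtuin substrate, and for Psmd13, which shares its promoter region with Sirt3. Colours and symbols are as in the plot of the sirtuins, and bars give the mean ± SD. KO replicates 1 and 2 stand highest for Nmrk2, KO replicate 6 stands apart for Ido2 and Nnmt, and the genotypes do not overlap for Aldh2.

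Ido2, an enzyme of tryptophan breakdown, had the other small p. WT arrays ranged from -0.65 to 0.11 with a median of -0.38, and KO arrays read 0.17, -0.11, -0.10, -0.03 and 1.60 in replicates 1, 2, 3, 5 and 6. The difference was 0.69 ± 0.26 (SE, unadjusted p = 0.0207, limma adjusted p = 0.899), and 0.35 without KO replicate 6. That array also held the liver transcripts. The median of the liver markers with a value was 5.00 there, against -0.22 to 0.50 on WT arrays and 0.23 to 2.05 on other KO arrays. The -0.22 is Apoc3 alone in WT replicate 3, and the 2.05 rests on Apoa1 (0.11) and Ahsg (3.99) in KO replicate 1. Ahsg was also at 3.76 in WT replicate 2. Alb, the albumin gene, was at 5.90 in KO replicate 6 and at most 0.57 on the other arrays with a value. The part of liver transcripts in the value of Ido2 was not tested.

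Nnt differed by -0.19 ± 0.09 (SE, limma adjusted p = 0.93), with WT arrays from 1.90 to 2.32 and KO arrays from 1.78 to 1.96. Its 4 probes had levels from 0.18 to 2.96, and the probe with the lowest level had the largest difference (-0.58 ± 0.23). Mice of the substrain C57BL/6J are known to carry a deletion within Nnt. The labels name no substrain and probe positions were not used here.

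Of 14 other genes listed as NAD+-consuming enzymes 5 were called above the reference and 6 below, against 24.8% and 26.6% of all features. The list also holds Nnmt, which methylates nicotinamide and does not itself use NAD+. Art1 and Art3, listed as members of the family of cell-surface ADP-ribosyltransferases, were far above the reference (5.27 ± 0.07 and 4.53 ± 0.04, SE). Parp1 and Parp2, which respond to DNA damage, lay below it (-0.64 ± 0.04 and -0.50 ± 0.04). Between genotypes 5 were higher and 9 lower in KO with a median difference of -0.06, and 0 had an unadjusted p under 0.05 in limma. Parp2 (0.13 ± 0.08, SE), Nnmt (0.37 ± 0.25) and Tnks2, a tankyrase (-0.11 ± 0.09), had the smallest p, with limma adjusted p from 0.942 to 0.944. Nnmt read 0.65 in KO replicate 6, against -0.93 to -0.69 on the other KO arrays, and its difference was 0.02 without that array.

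Regulators of Sirt1 showed no call between genotypes. Of 11 measured, 3 were called above the reference and 5 below, against 24.8% and 26.6% of all features. Ccar2, an inhibitor of Sirt1, was level with the reference (-0.04 ± 0.04, SE, limma adjusted p = 0.487), and Rps19bp1, an activator of Sirt1, was below it (-1.40 ± 0.04). Between genotypes 5 were higher and 6 lower, with a median of -0.02, and Senp1, a SUMO protease, had the smallest p (0.20 ± 0.15, SE, limma adjusted p = 0.943). Foxo3 differed by 0.12 ± 0.10 and Usp22, a ubiquitin hydrolase, by -0.17 ± 0.20, or 0.02 without WT replicate 5.

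Substrates of the mitochondrial sirtuins stood above the reference like Sirt3 and Sirt5. Of 18 measured substrates 15 were called above and 1 below, against 24.8% and 26.6% of all features, with a median level of 2.47 against 0.02 over all features. Acadl, a long-chain acyl-CoA dehydrogenase, was at 4.57 ± 0.05 (SE), Idh2, the mitochondrial isocitrate dehydrogenase, at 3.57 ± 0.05, and Sod2, the mitochondrial superoxide dismutase, at 2.88 ± 0.06. Mlycd, malonyl-CoA decarboxylase and a target of Sirt4, was at 3.32 ± 0.06. Glud1, another target of Sirt4, was at 0.09 ± 0.05 and was not called, and Shmt2, a target of Sirt3 and Sirt5 in serine metabolism, was below at -1.90 ± 0.05. In RNA from whole ventricle, more cells of a type and more RNA per cell cannot be told apart.

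**Figure D5:**
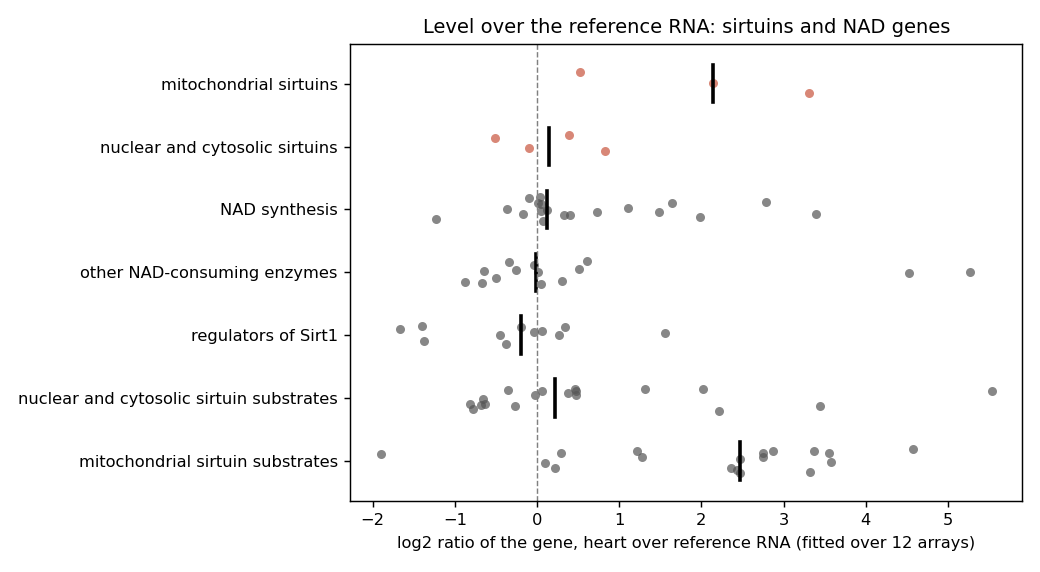
Fitted log2 ratio of heart over reference RNA (horizontal axis) for the members of 7 gene lists, with 1 point per gene, sirtuins in red and the median of each list as a black bar. The mitochondrial sirtuins (0.52 to 3.31) and the mitochondrial substrates (median 2.47) lie mostly to the right of 0, and the medians of the other lists lie between -0.20 and 0.21.

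Substrates of the nuclear and cytosolic sirtuins were spread over both sides, with 9 of 18 called above and 7 below, against 24.8% and 26.6% of all features, and a median level of 0.21. Pgam2, the muscle phosphoglycerate mutase, was the highest (5.53 ± 0.05, SE), and Ppargc1a, a coactivator of mitochondrial genes and a target of Sirt1, was at 3.45 ± 0.05. Hif1a, the hypoxia-inducible factor, was at -0.78 ± 0.05 and Crtc2, a coactivator of gluconeogenic genes, at -0.81 ± 0.05. Between genotypes 9 were higher and 9 lower, with a median of 0.01 and 0 with an unadjusted p under 0.05 in limma. Ppargc1a differed by -0.001 ± 0.10 (SE), and Srebf1 (0.24 ± 0.13), Pgam2 (-0.15 ± 0.11) and Nos3 (0.13 ± 0.10) had the smallest p, with limma adjusted p from 0.938 to 0.943.

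Of the mitochondrial substrates 7 were higher and 11 lower in KO, with a median of -0.03, and 0 passed over all features in limma. Otc, counted among the higher, read 2.36 in KO replicate 6 and at most 0.31 on the other KO arrays. Aldh2, the aldehyde dehydrogenase of mitochondria, was the 1 of 18 with an unadjusted p under 0.05, against 5.33% of all features. It read 0.99, 1.06, 1.09, 1.22, 1.04 and 1.02 in WT replicates 1 to 6 and 1.62, 1.62, 1.42, 1.41 and 1.34 in KO replicates 1, 2, 3, 5 and 6. Every KO array lay above every WT array, which was so for 1 of 79 measured genes of the lists outside the sirtuins, against 0.465% of all features in either direction.

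The difference of Aldh2 was 0.41 ± 0.09 (SE, unadjusted p = 0.000623, limma adjusted p = 0.46), and over alternatives its adjusted p ran from 0.333 to 0.994. The 2 probes of the gene did not give the same size, with 0.72 ± 0.17 for one and 0.09 ± 0.12 for the other. Opa1, which fuses inner membranes of mitochondria, differed by -0.14 ± 0.09 and Acss1, the mitochondrial acetyl-CoA synthetase, by -0.17 ± 0.12 (limma adjusted p = 0.942 for both).

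The genes with a pattern over arrays most like that of a sirtuin were searched among named genes measured on all 12 arrays, after the mean of each dye orientation was subtracted. For each sirtuin the 2 closest of at least 7426 candidates had Pearson r from 0.833 to 0.957 over 10 to 12 arrays. Closest to Sirt1 were 9230110K08Rik (0.96) and Tnxb, a matrix protein (0.93). Supt6, a transcription elongation factor (0.91), and Mtap, an enzyme of methionine salvage (0.89), were closest to Sirt2. Egfbp2 (0.90) and C030006K11Rik (0.89) came closest to Sirt3, and Zfp30 (0.88) and Vstm2a (0.88) to Sirt4. For Sirt5 they were Zfp300 (0.91) and Kif5c, a kinesin (0.90), and for Sirt6 Ldlrad4 (0.93) and Cyp1a2, a cytochrome P450 (0.93). The likeness was lowest for Sirt7, with Olfr1477, an olfactory receptor gene (0.85), and Ptprk, a receptor phosphatase (0.83). The sirtuins themselves varied little, with an SD of 0.06 (Sirt2) to 0.26 (Sirt6) around the dye means, and these are the highest of 7426 or more correlations over few arrays, so they describe these arrays only.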

How the data were processed

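Total RNA of ventricle was measured on 12 two-colour arrays, 1 per animal. Per the labels' protocols, each sample was amplified linearly before labelling, and the dyes were exchanged between animals and not within one. The authors deposited 1 signed log ratio per probe and array, read here as log2. Its base, background correction, normalization and rule for empty cells are not given in the sources used here. Array medians lay between -0.029 and 0.068, near 0, and arrays of opposite dye orientation correlated at r of 0.835 to 0.936 over probes, so the columns run in 1 direction. Cardiomyocyte markers above 0 set it as heart over reference.

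Probes were named through the platform annotation, which gave 31700 probes 1 symbol, 47 several and 9427 none. Gene positions and promoter windows are those of RefSeq (GRCm38.p6), and the build of the array is not given in the sources used here. Probes needed 2 values in each combination of genotype and dye, which kept 36826 probes and 25821 features, 17837 of them named genes. Where a gene had several probes, its value on an array was the array effect left after probe effects were fitted. The linear model of limma 3.58.1, run in R 4.3.3 with eBayes moderation, held genotype and dye orientation as terms. Its p-values are two-sided, were Benjamini-Hochberg adjusted across the features, and were called under 0.05. The steps were tested on simulated data. Errors of differences and levels are moderated standard errors, whose median for the genotype difference was 0.13, and the number of arrays limits this precision.

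The 7 genes, the lists and the tests were chosen with earlier results of these data known. Named genes are the sirtuins, Prkaa2, Prkaa1, up to 3 members of smallest p per list, and the 2 closest genes per sirtuin. Genes named for their level, Psmd13, Nampt, Ppargc1a, Tdo2, Otc and probes were picked beside that rule with values in view. List members with no value were not analysed here. Same-numbered WT and KO arrays of a dye had deviations correlating at -0.232 to 0.022, and differently numbered ones at -0.097 to 0.246. The main fit therefore did not use the numbers as pairs, though such correlations cannot settle whether animals were paired. Alternatives were the dye term, the replicate block, centring, quantile normalization, array weights, the filter, the joining of probes, each dye alone, and leaving out arrays. Tables and plots were made with Python 3.11.15, pandas 2.3.3 and matplotlib 3.10.9.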

Additional observations from a re-analysis of the deposited data

Results flagged for a closer look

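In 64 groups of animals examined gene by gene or probe by probe, 3 held an animal far from the others of its group, and chance gives about 1 in 20 groups. None of the 3 was a sirtuin gene or probe. Ido2 was at 1.604 in KO replicate 6, against -0.111 to 0.173 on the other 4 KO arrays that measured it. Nnmt was at 0.652 in the same animal, against -0.928 to -0.694 on the other 4 KO arrays, and at -0.432 in WT replicate 2, against -1.027 to -0.823 on the other 5 WT arrays. KO replicate 6 was the array with liver and lung transcripts, and WT replicate 2 was one with atrial transcripts and with Adipoq, a fat marker, at 3.93 (at most 0.826 on the other arrays with a value). Their part in these values was not tested.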

How the results depend on the processing

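No sirtuin gene was called between genotypes under any of 24 alternatives in limma, and 5 genes above and 1 below the reference were called under all 23 alternatives that measured the 7 genes. Restricting the fit to probes measured on all 12 arrays left 2 of the 7 genes, Sirt2 and Sirt4, and gave no such count. The mean difference between mitochondrial and other sirtuins was 1.74 to 1.84, and its KO minus WT value -0.25 to -0.05. The number of features called between genotypes was 1, and it was 2 with quantile normalization, 4 with probes measured on all arrays, 2 with heart RNA in Cy3 alone, 0 in Cy5 alone, 2 when the 3 arrays richest in transcripts of other tissues were dropped, and 1 to 3 when 1 array was left out (3 without KO replicate 6). Small differences changed sign without any call, and the cause was not tested. With quantile normalization Sirt5 was at -0.068. With heart RNA in Cy3 alone Sirt3 was at 0.006, Psmd13 at 0.142 and Usp22 at 0.14. With heart RNA in Cy5 alone Sirt2 was at 0.046, Sirt5 at -0.135 and the level of Sirt6 at 0.004. Without the 3 arrays richest in transcripts of other tissues (WT replicate 2, KO replicates 1 and 6) Sirt2 was at 0.036, Sirt5 at -0.072 and Psmd13 at 0.015. In that setting Sirt3 was at -0.289 and Sirt4 at -0.212, their lowest values under any setting, with no call. WT replicate 6 and KO replicate 5, which also carried atrial transcripts, were kept there. Feature 30269 alone gave Sirt2 0.022, probes on all arrays gave Prkaa1 0.045, and the plain mean over probes gave Acss1 0.204. Leaving out 1 array at a time, the ranges were -0.027 to 0.008 for Sirt2, -0.005 to 0.145 for Sirt5, -0.006 to 0.218 for Sirt6, -0.109 to 0.075 for Psmd13 and -0.312 to 0.019 for Usp22. With the replicate block Sirt3 was at -0.131 and Sirt5 at 0.095, and the block changed no call. Scanner intensities were not used here, so the signal over background behind each ratio is unknown.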
